A study of Mus musculus with 6 samples.

Results

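Peroxisomal β-oxidation genes were examined in liver RNA-seq of F1 female mice whose fathers drank water containing inorganic arsenic (iAs). The set holds 9 of the 17624 genes in the deposited table: Ehhadh, Hsd17b4, Acaa1a, Acaa1b, Scp2, Ech1, Abcd3, Pex11a and Decr2. The 9 genes were chosen by pathway while RPKM values of this same iAsF1-F and conF1-F comparison were known, so their values and SEs between the groups are a description, and no p is given for any of them. The groups were 3 iAsF1-F livers and 3 conF1-F livers. All 6 came from C57BL/6 females harvested, per the labels, at a feeding status, and the legend of the study's heat map calls the condition refeeding. Fathers of iAsF1-F mice received sodium arsenite in drinking water before mating with unexposed females, fathers of conF1-F mice did not, and the F1 mice themselves were not exposed. Age at harvest is not given for these livers in the sources used here. The study states biological triplicates from distinct mice or litters with a single round of sequencing. The labels do not say which livers came from 1 litter or 1 father, so the spread below is the spread between these 3 livers per group.

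Peroxisomes shorten very long-chain, branched-chain and dicarboxylic fatty acids and the side chains of bile acid precursors. The chain of reactions starts with an oxidation whose electrons go to oxygen and make hydrogen peroxide. A bifunctional enzyme then hydrates and dehydrogenates the chain, and a thiolase releases acetyl-CoA or propionyl-CoA. Shortened acyl groups leave for the mitochondria. In rodent liver many of these genes are induced by PPARα, the nuclear receptor that senses fatty acids and fasting.

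Most of the 9 genes had lower values in iAsF1-F than in conF1-F livers, and Ehhadh stood at the head of those with separate groups. Values are RPKM, read numbers scaled to transcript length and to the size of each library. By their decimals the deposited values are those of 1 entry for Ehhadh and Decr2, and means over 2 entries for Acaa1b, 3 for Hsd17b4 and Scp2, 4 for Ech1, Abcd3 and Pex11a, and 5 for Acaa1a. A mean over entries need not be a gene's whole level, so the order of levels between genes is open to this averaging, and comparisons between the groups are made within a gene. On the log2(RPKM + 1) scale, 8 of the 9 differences were below 0, with a median of -0.24, against 50.3% below 0 and a median of -0.0015 over all 6448 genes tested (those averaging 1 RPKM or more). The groups did not overlap, with all iAsF1-F livers lower, in 5 of the 9 genes, against a background of 5.71% of all genes tested. In limma with Benjamini-Hochberg adjustment over all genes tested, 0 of the 9 genes passed the threshold of 0.05, against a background of 0.248%. At an unadjusted p under 0.05, 4 of the 9 were lower in iAsF1-F, against a background of 2.37%. Since the set was chosen on this contrast, nothing is read from these counts. All 9 genes passed the filter on low values, and none was listed at 0 in any liver.

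**Figure D1:**
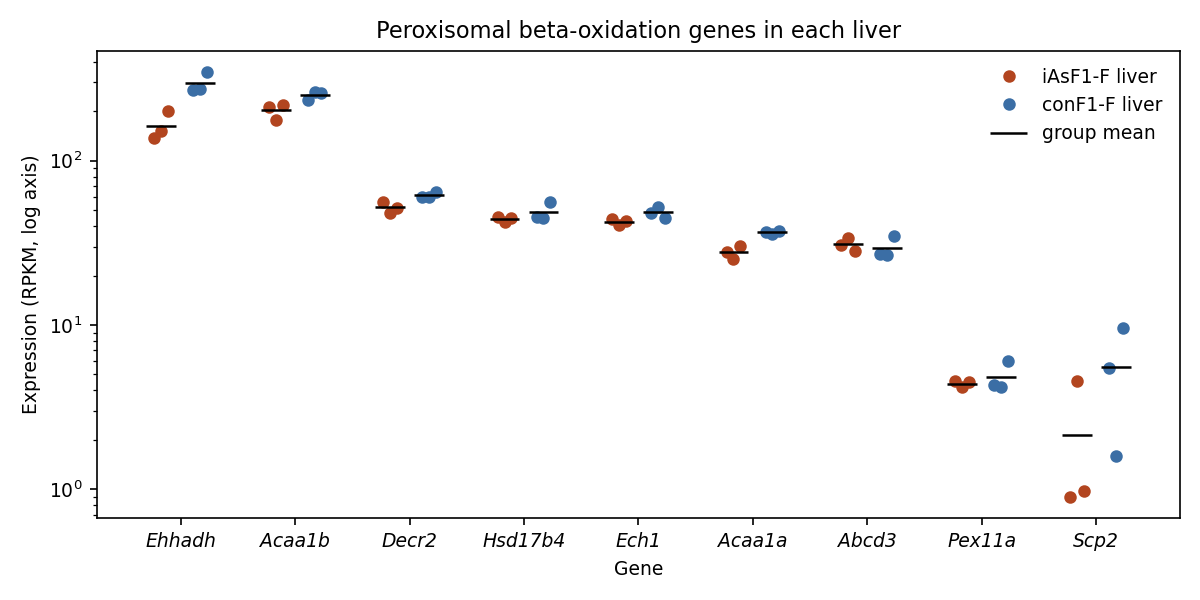
RPKM (log axis) of the 9 genes in each liver, with iAsF1-F livers (brown) left of conF1-F livers (blue), 1 point per liver and a bar at each group mean of 3 livers. Ehhadh sits between 138 and 201 RPKM in iAsF1-F and between 268 and 346 RPKM in conF1-F, whereas the Abcd3 and Pex11a points of the groups overlap.

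Promoters are shown for Ehhadh and Acaa1b, which have the highest printed RPKM of the 9 genes, and for Acaa1a, the close paralog of Acaa1b. RefSeq promoter windows of GRCm38.p6, from 250 bases before to 50 bases after the annotated start, were matched for 8 of the 9 members. The windows printed are Ehhadh at chr16:21787785-21788084 on the minus strand, Acaa1a at chr9:119341044-119341343 on the plus strand and Acaa1b at chr9:119157044-119157343 on the minus strand. They are shown 5′ to 3′ with the start at base 251, and capitals mark CCAAT or its reverse complement ATTGG. The Acaa1a start lies inside the outer bounds of its gene.
Ehhadh promoter: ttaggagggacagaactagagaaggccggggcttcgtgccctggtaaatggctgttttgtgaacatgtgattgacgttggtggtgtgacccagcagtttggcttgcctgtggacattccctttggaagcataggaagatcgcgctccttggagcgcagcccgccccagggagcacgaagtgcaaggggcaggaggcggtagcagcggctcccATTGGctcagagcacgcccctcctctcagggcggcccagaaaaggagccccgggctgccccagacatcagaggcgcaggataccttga
Acaa1a promoter: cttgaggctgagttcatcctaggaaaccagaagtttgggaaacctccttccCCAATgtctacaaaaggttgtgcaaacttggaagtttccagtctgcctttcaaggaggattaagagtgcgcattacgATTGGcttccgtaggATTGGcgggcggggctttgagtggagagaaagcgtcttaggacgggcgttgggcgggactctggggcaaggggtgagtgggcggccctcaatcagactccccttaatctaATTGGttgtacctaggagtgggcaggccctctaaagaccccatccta
Acaa1b promoter: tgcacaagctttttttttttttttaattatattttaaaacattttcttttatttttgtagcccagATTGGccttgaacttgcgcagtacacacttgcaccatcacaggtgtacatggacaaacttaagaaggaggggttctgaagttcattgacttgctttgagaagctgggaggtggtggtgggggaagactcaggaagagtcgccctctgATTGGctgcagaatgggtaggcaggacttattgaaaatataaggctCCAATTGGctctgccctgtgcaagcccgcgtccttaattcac

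CCAAT or ATTGG, searched on both strands after these windows had been seen, occurred 1 time in the Ehhadh window and 4 times in each Acaa1 window, and a CCAAT and an ATTGG share 2 letters in the Acaa1b window. These were 3 of the 8 matched members, against 37.4% of all 32851 promoter windows. The half-site AGGTCA, which PPARα and RXR recognise as a direct repeat with 1 base between the copies, was searched with its reverse complement TGACCT. It occurred in the window of Scp2 among the 8 matched members, against 16.3% of all windows. The windows of Scp2, Acaa1a, Decr2 and Ech1, and an Abcd3 window, belong to starts inside the outer bounds of these genes. Starts of these genes without a window here were not searched. The repeat AGGTCANAGGTCA with at most 2 mismatches, on either strand, occurred in 0 of the 8 members and in 3.86% of all windows. A match here is a run of letters and not a bound site, and the windows hold neither distant enhancers nor introns.

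Transport into the peroxisome is the step ahead of the pathway. Abcd3 encodes PMP70, a half-transporter of the peroxisomal membrane that carries long-chain and branched-chain acyl-CoA and bile acid precursors, and lies at chr3:121758774-121815302. Its value was 30.6, 33.9 and 28.1 RPKM in iAsF1-F livers, against 26.9, 26.8 and 34.6 RPKM in conF1-F livers. The groups overlapped, and the difference on the log2(RPKM + 1) scale was 0.07 (SE 0.13). Abcd3 was the single member with a difference above 0. Slc27a2, which is no member, encodes a very long-chain acyl-CoA synthetase that activates fatty acids at the peroxisome and endoplasmic reticulum. It had 298, 268 and 273 RPKM in iAsF1-F livers, against 327, 351 and 338 RPKM in conF1-F livers, with no overlap. Its difference of -0.28 (SE 0.06) did not pass limma's adjusted threshold (adjusted p = 0.649), and the two-sided exact permutation test gave p = 0.1, the smallest that 3 against 3 allows.

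The hydratase and dehydrogenase step has 2 bifunctional enzymes, Ehhadh with separate groups and Hsd17b4 with overlapping ones. Ehhadh (ENSMUSG00000022853, chr16:21761287-21787807, minus strand) encodes the L-bifunctional enzyme, which acts on straight-chain and dicarboxylic acyl-CoA. It had 138, 151 and 201 RPKM in iAsF1-F livers, against 268, 272 and 346 RPKM in conF1-F livers. Every iAsF1-F liver was below every conF1-F liver. The means were 163 ± 33.1 RPKM in iAsF1-F livers, against 296 ± 43.7 RPKM in conF1-F livers (SD, n = 3 each), a level 44.8% lower in iAsF1-F. The difference was -0.86 (SE 0.18) on the log2(RPKM + 1) scale, and lay between -1.02 and -0.74 when each liver was left out in turn. Ehhadh is also among the genes that the study shows from these samples.

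Hsd17b4 (chr18:50128201-50196269, plus strand) encodes the D-bifunctional enzyme, which takes branched-chain fatty acids and bile acid precursors through the same reactions. It had 45.1, 42.6 and 44.9 RPKM in iAsF1-F livers, against 45.4, 45.0 and 55.8 RPKM in conF1-F livers. The groups met between 45.0 and 45.1 RPKM, and conF1-F liver 3 stood above the other 5. The difference was -0.13 (SE 0.10), and -0.03 without conF1-F liver 3.

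Within a liver, the ratio of Ehhadh to Hsd17b4 does not depend on the scaling of that liver. It was 3.06, 3.54 and 4.47 in iAsF1-F livers, against 5.91, 6.05 and 6.20 in conF1-F livers. The mean ratio was 3.69 ± 0.716 in iAsF1-F and 6.05 ± 0.142 in conF1-F (SD, n = 3 each). The size of the ratio depends on the averaging over the 3 entries of Hsd17b4.

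**Figure D2:**
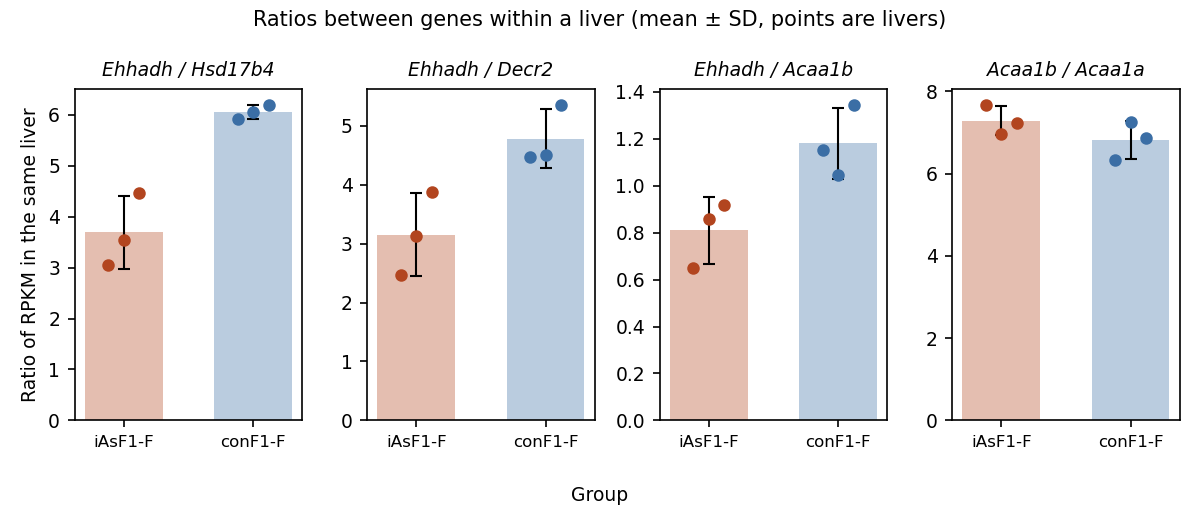
Ratios of RPKM between pairs of genes in the same liver, for iAsF1-F (left bars) and conF1-F (right bars), with the mean ± SD of 3 livers and 1 point per liver. The ratios of Ehhadh to Hsd17b4, Decr2 and Acaa1b were lower in every iAsF1-F than in every conF1-F liver, whereas Acaa1b over Acaa1a overlapped between the groups.

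The thiolases close each cycle. Acaa1b (chr9:119148023-119157093, minus strand), a 3-ketoacyl-CoA thiolase that acts on straight chains, had printed RPKM near those of Ehhadh, though as a mean over 2 entries where Ehhadh has 1. It had 212, 176 and 219 RPKM in iAsF1-F livers, against 233, 261 and 257 RPKM in conF1-F livers. The groups did not overlap, and iAsF1-F liver 2 was the lowest. Its difference was -0.31 (SE 0.10).

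Acaa1a (chr9:119339676-119350299, plus strand), the paralog of Acaa1b on the same chromosome, had the smallest SD relative to its mean in conF1-F among the 9 genes. It had 27.7, 25.2 and 30.2 RPKM in iAsF1-F livers, against 36.7, 35.9 and 37.4 RPKM in conF1-F livers. The means were 27.7 ± 2.51 RPKM in iAsF1-F livers, against 36.7 ± 0.757 RPKM in conF1-F livers (SD, n = 3 each), a level 24.4% lower in iAsF1-F. The difference was -0.39 (SE 0.08).

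The pair is close in sequence, which bears on how reads are divided between them. The coding parts of Acaa1a-201 and Acaa1b-201 in GENCODE are 1275 bases each and identical at 1231 bases (96.5%), with 44 differences and an identical run of up to 327 bases. Of all 50-base windows, 34.0% of the Acaa1a transcript occur exactly in Acaa1b and 35.5% of the Acaa1b transcript occur exactly in Acaa1a. Coding stretches of 60 bases that lie within a single exon of both genes were compared. The first with the most differences (coding bases 460 to 519, 11 differences) is shown with the differing bases in capitals. It lies at chr9:119346483-119346542 on the plus strand for Acaa1a and at chr9:119151842-119151901 on the minus strand for Acaa1b (GRCm38).
Acaa1a: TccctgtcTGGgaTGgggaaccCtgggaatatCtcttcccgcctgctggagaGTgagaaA
Acaa1b: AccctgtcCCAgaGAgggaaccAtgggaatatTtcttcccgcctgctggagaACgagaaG

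The promoter windows of the pair, printed above, were identical at 51.8% of 342 aligned columns, gaps included. No unrelated windows were aligned for comparison, so no likeness is read from this share. The ratio of Acaa1b to Acaa1a was 7.68, 6.97 and 7.23 in iAsF1-F livers, against 6.34, 7.27 and 6.88 in conF1-F livers, and overlapped between the groups. How reads shared by the paralogs were assigned is not given in the sources used here, so the separate values of the pair are uncertain.

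Scp2 (chr4:108043839-108144998, minus strand) encodes sterol carrier protein 2 and, from a longer transcript, SCPx, the thiolase for branched-chain substrates. It had 0.904, 4.55 and 0.979 RPKM in iAsF1-F livers, against 5.48, 1.60 and 9.63 RPKM in conF1-F livers. The groups overlapped, since iAsF1-F liver 2 stood above conF1-F liver 2. Its difference of -1.03 (SE 0.68) was the largest of the set in size and also had the largest error, and lay between -1.59 and -0.57 when each liver was left out. The values of the 3 entries behind each Scp2 mean are not used here. The printed RPKM therefore need not be the level of Scp2 in liver. Whether its uneven values are failed estimates was not tested.

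The auxiliary enzymes prepare unsaturated chains for the cycle, and both were lower without overlap. Decr2 (chr17:26081208-26090337, minus strand), the peroxisomal 2,4-dienoyl-CoA reductase, had 56.1, 48.3 and 51.9 RPKM in iAsF1-F livers, against 59.9, 60.4 and 64.6 RPKM in conF1-F livers. Its difference was -0.24 (SE 0.08). Ech1 (chr7:28825217-28832247, plus strand), a dienoyl-CoA isomerase found in peroxisomes and mitochondria, had 44.2, 40.4 and 42.9 RPKM in iAsF1-F livers, against 48.2, 52.3 and 45.0 RPKM in conF1-F livers. The nearest Ech1 values of the groups were 44.2 RPKM in iAsF1-F liver 1 and 45.0 RPKM in conF1-F liver 3, and its difference was -0.18 (SE 0.08).

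Pex11a (chr7:79735957-79743131, minus strand) is a membrane protein of peroxisome elongation and division rather than an enzyme. It had 4.54, 4.17 and 4.50 RPKM in iAsF1-F livers, against 4.34, 4.20 and 6.01 RPKM in conF1-F livers. Its groups overlapped, and its difference of -0.10 (SE 0.15) turned to 0.04 without conF1-F liver 3.

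**Figure D3:**
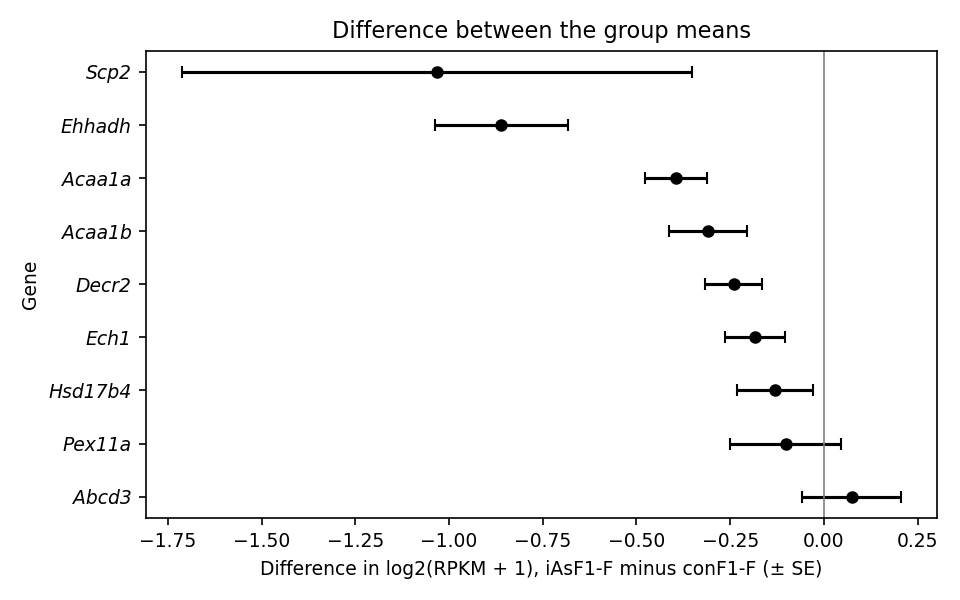
Difference in log2(RPKM + 1) between the group means, iAsF1-F minus conF1-F, with its SE from limma for each of the 9 genes (3 livers per group). Scp2 and Ehhadh lie farthest below 0, Scp2 with an SE of 0.68 and Ehhadh with an SE of 0.18, and Abcd3 lies above 0.

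The livers were not alike within their groups. conF1-F liver 3 was the highest of the 6 livers in 7 of the 9 genes, and iAsF1-F liver 2 was the lowest in 6 of the 9. Ehhadh and Scp2 were lowest in iAsF1-F liver 1 instead, and Abcd3 in conF1-F liver 2. Without conF1-F liver 3, 7 of the 9 differences were below 0 and the median was -0.24. Without iAsF1-F liver 2, 8 of the 9 were below 0 and the median was -0.19.

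**Figure D4:**
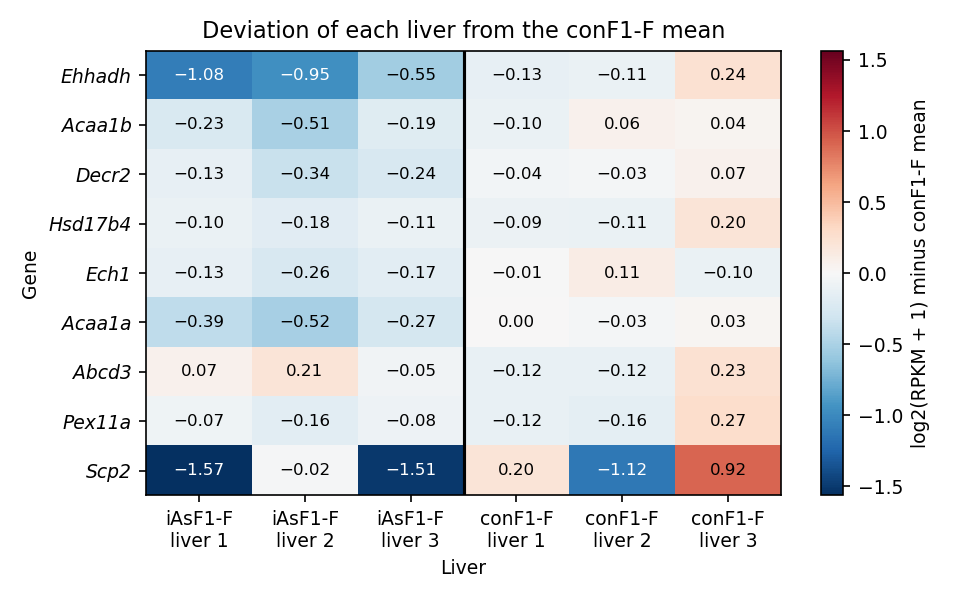
Each cell is log2(RPKM + 1) of 1 gene in 1 liver minus the conF1-F mean of that gene, with iAsF1-F livers left of the black line and conF1-F livers right of it. Ehhadh was -1.08, -0.95 and -0.55 in iAsF1-F livers, and conF1-F liver 3 was above the conF1-F mean in every row except Ech1.

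Added over the 9 genes, RPKM came to 560, 526 and 623 in iAsF1-F livers, against 728, 760 and 856 in conF1-F livers. Ehhadh made up 24.7%, 28.7% and 32.2% of this sum in iAsF1-F livers, against 36.9%, 35.9% and 40.4% in conF1-F livers. Acaa1b made up 38.0%, 33.4% and 35.1% in iAsF1-F livers, against 32.0%, 34.3% and 30.1% in conF1-F livers. The sum and the shares take the values as printed, and since Acaa1b is a mean over 2 entries and Ehhadh is not, they do not rank these genes by level.

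The rest of the pathway was read from a list of 24 further genes of peroxisomal β-oxidation and its substrate handling, of which 17 were tested. Of these, 13 had differences below 0, with a median of -0.10, and 0 passed limma's adjusted threshold. The groups did not overlap in 3 with iAsF1-F lower (Slc27a2, Eci2 and Lonp2) and in 1 with iAsF1-F higher (Hacl1, against a background of 5.83%). At an unadjusted p under 0.05, Slc27a2 and Eci2 were lower and none was higher (background 2.75%). Eci2, an isomerase for unsaturated acyl-CoA named here after its values were seen, had 4.36, 4.25 and 4.89 RPKM in iAsF1-F livers, against 5.68, 6.05 and 5.21 RPKM in conF1-F livers (adjusted p = 0.877, limma).

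Phyh and Hacl1 of the same list act in α-oxidation, which removes 1 carbon from branched chains such as phytanic acid. Phyh, the phytanoyl-CoA hydroxylase, averaged 159 ± 7.17 RPKM in iAsF1-F livers, against 159 ± 5.94 RPKM in conF1-F livers (SD, n = 3 each). Hacl1, the lyase of the same route, had 25.0, 23.3 and 29.5 RPKM in iAsF1-F livers, against 22.3, 23.0 and 22.0 RPKM in conF1-F livers. Its difference of 0.19 (SE 0.10) did not pass limma's threshold (adjusted p = 0.877).

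The other genes of this list above 10 RPKM on average had smaller or less even differences. Lonp2, a peroxisomal protease, averaged 88.3 ± 2.41 RPKM in iAsF1-F livers, against 92.1 ± 1.01 RPKM in conF1-F livers. Amacr, the racemase for branched-chain acyl-CoA, averaged 25.2 ± 1.39 RPKM in iAsF1-F livers, against 27.2 ± 1.83 RPKM in conF1-F livers, with overlap. Acot4, a peroxisomal thioesterase, averaged 9.39 ± 1.13 RPKM in iAsF1-F livers, against 11.9 ± 2.22 RPKM in conF1-F livers, also with overlap. Tysnd1, the protease that processes β-oxidation enzymes, averaged 15.3 ± 2.16 RPKM in iAsF1-F livers, against 16.9 ± 2.86 RPKM in conF1-F livers (SD, n = 3 each for all). Crot, the carnitine octanoyltransferase that exports shortened chains, had 21.5, 36.2 and 22.4 RPKM in iAsF1-F livers, against 15.8, 53.4 and 36.8 RPKM in conF1-F livers. Its difference of -0.27 (SE 0.48) turned to 0.10 without conF1-F liver 2.

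Other peroxisomal functions were read from 2 further lists. Here and for mitochondrial genes, PPARα targets and regulators, genes were named by their values unless said otherwise. These are the 3 of highest mean RPKM and the 2 of smallest unadjusted p of each list. Of 17 tested genes for other peroxisomal enzymes, 6 were below 0 and the median was 0.05. In limma, 0 passed the adjusted threshold, and at an unadjusted p under 0.05 there was 1 lower and 2 were higher. Cat, the catalase that removes hydrogen peroxide, had 858, 815 and 837 RPKM in iAsF1-F livers, against 675, 764 and 679 RPKM in conF1-F livers. Here the groups did not overlap and iAsF1-F was the higher, with a difference of 0.25 (SE 0.07, adjusted p = 0.815 in limma). Ephx2, a soluble epoxide hydrolase, averaged 234 ± 14.1 RPKM in iAsF1-F livers, against 264 ± 12.2 RPKM in conF1-F livers, lower without overlap. Gstk1, a glutathione transferase, averaged 72.0 ± 2.38 RPKM in iAsF1-F livers, against 68.1 ± 1.45 RPKM in conF1-F livers, higher without overlap (SD, n = 3 each for both genes). Agps, which makes ether lipids and is shown by the study from these samples, was below the filter with 0.0621, 0.115 and 0.136 RPKM in iAsF1-F livers, against 0.405, 0.335 and 0.443 RPKM in conF1-F livers, without overlap.

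Peroxins, which build the organelle and import its enzymes, showed no common direction. Of 11 tested peroxins besides Pex11a, 6 were below 0 and the median was -0.05, with 0 past limma's adjusted threshold and 0 at an unadjusted p under 0.05. Pex16, which inserts membrane proteins, averaged 9.84 ± 1.53 RPKM in iAsF1-F livers, against 10.2 ± 0.728 RPKM in conF1-F livers, and Pex13, part of the import pore, averaged 8.57 ± 2.74 RPKM in iAsF1-F livers, against 11.1 ± 1.40 RPKM in conF1-F livers (SD, n = 3 each). Pex19 had 8.61, 7.53 and 9.05 RPKM in iAsF1-F livers, against 8.50 and 9.61 RPKM in conF1-F livers 2 and 3, and was listed at 0 in conF1-F liver 1. Pex14 had 10.04, 7.82 and 7.53 RPKM in iAsF1-F livers, against 10.9 RPKM in conF1-F liver 1, and was listed at 0 in conF1-F livers 2 and 3. Pex11g had 4.004, 4.50 and 6.46 RPKM in iAsF1-F livers, against 2.72 and 2.61 RPKM in conF1-F livers 2 and 3, and was listed at 0 in conF1-F liver 1. A value listed at 0 for genes that liver cells need can be a failed estimate, so no fold is given.

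In mitochondrial β-oxidation, which takes over the shortened chains, 13 of 17 tested genes were below 0, with a median of -0.13. In limma, 0 passed the adjusted threshold, and 2 were lower and 0 higher at an unadjusted p under 0.05. Eci1, an enoyl-CoA isomerase, had 77.3, 66.4 and 84.4 RPKM in iAsF1-F livers, against 91.5, 92.6 and 91.0 RPKM in conF1-F livers, without overlap and with a difference of -0.27 (SE 0.10, adjusted p = 0.877 in limma). Slc25a20, the carnitine-acylcarnitine carrier, had 11.2, 12.3 and 12.3 RPKM in iAsF1-F livers, against 14.9, 15.3 and 13.3 RPKM in conF1-F livers, also without overlap (adjusted p = 0.877 in limma). Acadl, a dehydrogenase for long chains, averaged 91.9 ± 4.61 RPKM in iAsF1-F livers, against 101 ± 9.02 RPKM in conF1-F livers (SD, n = 3 each), with overlap. Acaa2, the mitochondrial thiolase, was listed at 0 in 2 conF1-F livers and is given no fold.

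Known PPARα targets were mixed. Of 17 tested targets outside the 9 genes, 10 were below 0 and the median was -0.17. In limma, 0 passed the adjusted threshold, and 3 were lower and 1 higher at an unadjusted p under 0.05. Acot2, a mitochondrial acyl-CoA thioesterase, had 8.38, 7.36 and 8.71 RPKM in iAsF1-F livers, against 22.9, 15.8 and 20.0 RPKM in conF1-F livers, with a difference of -1.16 (SE 0.15, adjusted p = 0.140 in limma). Vnn1, a pantetheinase, had 20.6, 20.9 and 28.3 RPKM in iAsF1-F livers, against 35.8, 44.1 and 38.8 RPKM in conF1-F livers, with a difference of -0.75 (SE 0.15, adjusted p = 0.538 in limma). Both had groups without overlap, and both were named for having the smallest unadjusted p of this list. The remaining target counted as lower was Cyp4a32, which was listed at 0 in 2 iAsF1-F livers and is given no fold. Pdk4, a kinase that restrains pyruvate dehydrogenase and was named after its values were seen, was the 1 higher target, with 4.36, 3.83 and 2.48 RPKM in iAsF1-F livers, against 1.96, 0.878 and 1.46 RPKM in conF1-F livers. Its groups did not overlap either, and its difference of 0.91 (SE 0.26) did not pass limma's threshold (adjusted p = 0.877).

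The targets of highest mean RPKM did not separate the groups. Fabp1, the liver fatty acid binding protein, averaged 2489 ± 360.3 RPKM in iAsF1-F livers, against 2510 ± 255 RPKM in conF1-F livers (SD, n = 3 each). Cyp4a10, a fatty acid ω-hydroxylase, had 138, 159 and 208 RPKM in iAsF1-F livers, against 91.7, 225 and 313 RPKM in conF1-F livers. Its neighbour Cyp4a14 had 181, 215 and 305 RPKM in iAsF1-F livers, against 274, 340 and 429 RPKM in conF1-F livers, with overlap. The regulators had few values above the filter, and 4 were tested with a median of -0.02. Ppara itself had 1.28, 6.28 and 5.54 RPKM in iAsF1-F livers, against 6.62, 5.64 and 4.83 RPKM in conF1-F livers, and its partner Rxra averaged 33.3 ± 2.32 RPKM in iAsF1-F livers, against 32.0 ± 3.60 RPKM in conF1-F livers (SD, n = 3 each). Hnf4a and Nr1h4, nuclear receptors of hepatocyte identity and bile acids, also overlapped between the groups.

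Values listed at 0 weighed on some of these medians. Without genes listed at 0 in any liver, the median was -0.09 over 14 PPARα targets, 0.10 over 14 other peroxisomal enzymes and -0.08 over 7 peroxins, and stayed at -0.10 over 15 other peroxisomal β-oxidation genes and at -0.13 over 15 mitochondrial β-oxidation genes.

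**Figure D5:**
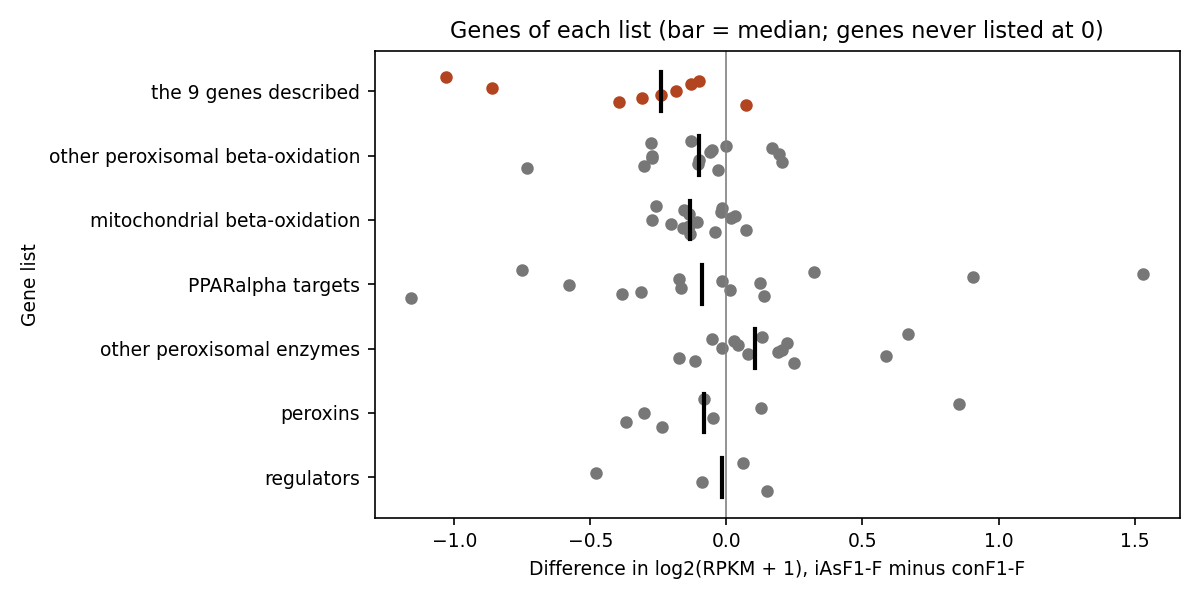
Difference in log2(RPKM + 1), iAsF1-F minus conF1-F, for each tested gene of 7 lists that was never listed at 0, with a bar at the median of the genes plotted. The 9 genes (brown) have a median of -0.24, and the 15 other peroxisomal β-oxidation genes plotted have a median of -0.10.

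Genes whose pattern over the 6 livers was most like that of Ehhadh were ranked by the root mean square difference of log2(RPKM + 1) values, each centred on its own mean, among 5178 tested genes never listed at 0. The 5 closest were Zyx, Gm12715, Crnkl1, Actg1 and Vnn1, with differences between 0.139 and 0.164. Of these, Vnn1 belongs to the PPARα list. Zyx encodes a protein of focal adhesions, Actg1 a cytoplasmic actin and Crnkl1 a splicing factor. Over the 6 livers, Zyx lay between 0.837 and 2.95 RPKM and Crnkl1 between 1.06 and 3.27 RPKM. At such values the pseudocount of 1 understates changes, so their likeness to Ehhadh depends on it. Among the 9 genes, Acaa1a ranked 49, Acaa1b ranked 136 and Decr2 ranked 331, whereas Scp2 ranked 4546. The order describes 6 livers and was made with the group difference included.

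Markers of the tissue and the libraries were read beside these values. All 9 hepatocyte markers had values, 8 of them with differences above 0. Ttr and Serpina1a were higher in iAsF1-F without overlap. Cyp2e1 was lower without overlap, at 677, 683 and 676 RPKM in iAsF1-F livers, against 763, 879 and 733 RPKM in conF1-F livers. Ass1 was below 1 RPKM in every liver except iAsF1-F liver 2 (6.69 RPKM). The summed level, most of it Alb, was 37698 to 42988 RPKM in iAsF1-F and 35515 to 42000 RPKM in conF1-F. Kupffer cell markers were below 0 in 5 of 5 (sum 51.2 to 124 RPKM in iAsF1-F, against 92.1 to 163 RPKM in conF1-F), and erythroid markers in 3 of 4 tested (sum 237 to 367 RPKM in iAsF1-F, against 372 to 647 RPKM in conF1-F). Of 5 listed cholangiocyte markers, 2 were read, and summed to 3.58 to 5.07 RPKM in iAsF1-F and 5.05 to 18.8 RPKM in conF1-F. Of 5 for sinusoidal endothelium, 4 were read, and summed to 0.146 to 14.4 RPKM in iAsF1-F and 9.51 to 15.0 RPKM in conF1-F. Among these, Clec4g was listed at 0 in iAsF1-F liver 1. Stellate cell markers summed to 38.9 to 44.5 RPKM in iAsF1-F and 29.9 to 51.8 RPKM in conF1-F, with Lrat listed at 0 in conF1-F livers 2 and 3. Among T and B cell markers, Cd3d was read and was below 1 RPKM in every liver. No values were found here for the listed markers of fat, pancreas and muscle. Of the Kupffer cell markers, Vsig4 was listed at 0 in 2 iAsF1-F livers and Marco in 5 of the 6 livers. Clec4f, Cd5l and Csf1r had values in every liver and overlapped between the groups. Mitochondrially encoded genes took 15.3% to 17.0% of all RPKM in iAsF1-F and 14.2% to 15.2% in conF1-F. Relative depth was 67.0% to 100% of the deepest library in iAsF1-F and 76.6% to 90.1% in conF1-F. It was inferred from the commonest RPKM ratio of each library to conF1-F liver 1, over genes of 1 entry, and not from read numbers. In each other library, 110 to 128 of the 4374 to 4773 genes compared had that ratio. The part of these markers and library measures in the lower values of the 9 genes was not tested. In whole liver, fewer cells of a type and less RNA per cell cannot be told apart.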

How the data were processed

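Liver RNA of 3 iAsF1-F and 3 conF1-F mice was extracted with Trizol and the RNeasy kit and sequenced by the authors on Illumina instruments. The authors deposited RPKM values, normalized to transcript length and library reads before deposit. In their processing notes the submitters list DESeq2 1.8.2, HTSeq and STAR 2.5.3a with mm10, without roles, and the program behind RPKM is not given in the sources used here. Reads per library are unknown, so no counting interval is given.

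Columns were assigned through each sample's own table, which equalled the series table in all 105744 cells. Positions came from GENCODE (GRCm38). By their decimals, values of 5496 genes are means of several entries. The 6448 genes averaging 1 RPKM or more were compared as log2(RPKM + 1) with limma 3.58.1 in R 4.3.3 (variance trend, group as the only term, Benjamini-Hochberg, threshold 0.05). A pseudocount of 1 understates changes of low genes. For genes outside the set, two-sided exact permutation tests were run.

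The 9 genes and the lists were chosen with earlier results of these data known. Named are all 9 genes, further pathway genes averaging at least 10 RPKM, the 3 of highest mean RPKM and the 2 of smallest unadjusted p of each other list, Agps, and the 5 genes most like Ehhadh. A gene of the further pathway list is not reported here and was left out of that list's counts. Alternatives were a pseudocount of 0.1, no filter, rescaling to one median, mitochondrial genes left out of the total, a replicate block, a robust fit, removal of genes listed at 0, unadjusted p, and leaving out each liver. Sequences came from RefSeq (GRCm38.p6) and GENCODE. Values were handled with pandas 2.3.3 and numpy 2.4.6 in Python 3.11.15.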

Additional observations from a re-analysis of the deposited data

How the results depend on the processing

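The median difference of the 9 genes stayed between -0.29 and -0.19 when each liver was left out and between -0.24 and -0.22 under the other settings run, and 7 to 8 of the 9 differences were below 0 when each liver was left out. Among the 9 genes, Pex11a alone changed sign, without conF1-F liver 3. Over all genes, 16 passed the adjusted threshold (0.248%), against 330 at an unadjusted p under 0.05, 5 without genes listed at 0 in any liver and 26 to 38 when each liver was left out in turn (leave-one-out).

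With the replicate number as a block, 0 genes passed in limma (281 at an unadjusted p under 0.05). Over all genes tested, deviations of livers with the same number correlated at -0.07, 0.02 and 0.01. These correlations gave no sign of pairing, but they cannot show that livers of the same number share nothing else. With the block, the SE of Ehhadh went from 0.18 to 0.06 and that of Scp2 from 0.68 to 0.85. Phyh, next to 0, turned to 0.00701 after rescaling to one median and to 0.0242 with mitochondrial genes left out, and lay between -0.038 and 0.028 with livers left out. Over the same livers, Crot lay between -0.75 and 0.10. The causes were not tested. Rescaling moved the median of all genes by 0.006 and leaving out mitochondrial genes by 0.02. No symbol of the 9 genes is repeated, so taking the next row could not be run. Scp2 and Pex11a are limited most by printed values of a few RPKM. These are means over 3 and 4 entries and need not be the levels of the genes in liver.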
